A study of Mus musculus with 24 samples.

Results

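MHC class I molecules are made of a heavy chain and a light chain, and the proteasome, a transporter and a loading complex supply the peptides they display. Of this pathway 10 genes were followed in mouse cortex: B2m, H2-D1, H2-K1, H2-T23, Tap1, Tap2, Tapbp, Psmb8, Psmb9 and Nlrc5. They were chosen by name as the rows of the count table that carry these symbols, and all 10 were found among 24421 genes. The choice was made with earlier results of these data known. Setting their counts beside the share of all genes is therefore a description and not a test. All 10 also passed the filter on low counts that kept 16316 genes for testing.

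The cortex came from 24 mice aged 7.5 months, 1 library per mouse. All carried 5xFAD, an Alzheimer model transgene that the Thy1 promoter drives in neurons, and such mice form amyloid plaques. By their labels they fall into 4 genotypes of 6 mice: WT at both loci, Trem2KO (knockout of Trem2), Plcg2KO (homozygous knockout of Plcg2) and Plcg2HET (labelled as heterozygous for that knockout). There were 4 males and 2 females in Plcg2KO and 3 of each sex in the other groups. TREM2 is a microglial surface receptor for lipids and other ligands, and PLCG2 is a phospholipase on its signalling path. No mice free of 5xFAD were analysed here, so all levels are levels in cortex with amyloid.

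In class I presentation, proteasomes cut cytosolic proteins, the TAP transporter carries the peptides into the endoplasmic reticulum, and tapasin helps load them onto heavy chains bound to beta-2 microglobulin. CD8 T cells read the peptides at the cell surface. Interferons and the transactivator NLRC5 raise many of these genes together, and interferon gamma also swaps the constitutive catalytic subunits of the proteasome for inducible ones, which makes the immunoproteasome. In brain, microglia and endothelial cells carry much of the class I signal, and neurons use class I molecules at synapses.

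The sequences upstream of 4 class I genes and of the interval shared by Tap1 and Psmb9 are shown because this is where class I control elements lie. The part of these elements in the members' levels was not tested. Capitals in each line mark the letters of an interferon-stimulated response element (ISRE), written GAAA, any 2 bases, GAAA. They also mark CCAAT boxes (CCAAT), the core of a cyclic AMP response element (TGACG) and kB elements (GGGGA, any base, TCCCC). Which CCAAT match is the Y box of class I promoters was not decided. Both strands were searched, so that ATTGG is CCAAT on the other strand, and no motifs overlap here. Each line gives the bases just before the start of the gene in 5′ to 3′ order on the strand of the gene, and the shared interval is given on the strand of Tap1.
H2-K1: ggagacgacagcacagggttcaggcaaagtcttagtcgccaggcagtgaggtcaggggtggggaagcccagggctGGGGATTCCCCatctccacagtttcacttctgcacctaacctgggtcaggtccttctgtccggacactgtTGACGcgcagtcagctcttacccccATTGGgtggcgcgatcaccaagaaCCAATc
H2-D1: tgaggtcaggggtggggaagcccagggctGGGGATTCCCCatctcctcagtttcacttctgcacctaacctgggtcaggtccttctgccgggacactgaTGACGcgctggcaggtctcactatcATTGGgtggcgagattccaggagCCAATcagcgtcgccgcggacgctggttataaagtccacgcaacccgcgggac
H2-T23: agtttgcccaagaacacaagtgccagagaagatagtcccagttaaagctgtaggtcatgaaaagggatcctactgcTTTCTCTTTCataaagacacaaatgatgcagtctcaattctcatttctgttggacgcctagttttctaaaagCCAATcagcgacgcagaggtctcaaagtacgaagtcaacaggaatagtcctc
B2m: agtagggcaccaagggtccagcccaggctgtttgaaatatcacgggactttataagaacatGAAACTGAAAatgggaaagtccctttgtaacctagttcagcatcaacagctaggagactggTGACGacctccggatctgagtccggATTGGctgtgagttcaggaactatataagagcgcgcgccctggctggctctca
Tap1-Psmb9: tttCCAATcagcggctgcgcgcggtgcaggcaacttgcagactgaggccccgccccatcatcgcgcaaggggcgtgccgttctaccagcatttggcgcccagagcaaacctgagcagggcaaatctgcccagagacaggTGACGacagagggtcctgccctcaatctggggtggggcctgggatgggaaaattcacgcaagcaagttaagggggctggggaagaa
The windows are chr17:34000334-34000533 on the minus strand for H2-K1, chr17:35262894-35263093 on the plus strand for H2-D1, chr17:36032702-36032901 on the minus strand for H2-T23 and chr2:122147487-122147686 on the plus strand for B2m. The interval of 225 bases between Psmb9 and Tap1 is chr17:34187331-34187555. All were read from RefSeq sequence of build GRCm38.p6.

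In H2-K1 and H2-D1 the printed stretches hold the same order of marked elements, a kB element, then TGACG, then ATTGG and CCAAT. The kB letters start 125 bases before the start of H2-K1 and 171 bases before that of H2-D1. B2m holds GAAACTGAAA from 139 to 130 bases before its start, and H2-T23 holds TTTCTCTTTC, an ISRE match on the other strand, from 124 to 115 bases before. Windows of 300 bases (250 before to 50 after the start) were available for 8 of the 10 members, Tap2 and Nlrc5 not among them. Members were counted by gene and the shares by window, with 32851 windows for 27025 genes. The windows of Tap1 and Psmb9 overlap, so the same CCAAT and the same TGACG count for both genes. CCAAT was found in 7 of the 8 (all but Psmb8), against 37.4% of 32851 windows over all genes. TGACG was found in 5 of 8 against 20.8% of windows, and the ISRE letters in 2 of 8, B2m and H2-T23, against 3.44%. Only these exact letters were searched, so H2-K1 and H2-D1 are not shown to lack an ISRE of another form. The kB letters were found in 2 of 8, H2-K1 and H2-D1, against 0.0487%, which is 16 windows of all 32851. The gamma-activated site (TTC, any 3 bases, GAA) was found in 1 of 8, Psmb8, against 8.3%. A match of letters is a description of the window and not a site shown to be bound.

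Of the 10 members, 8 lie on chromosome 17 in the MHC region (mm10). Psmb9 (34182099 to 34187330, minus strand), Tap1 (34187556 to 34197225), Psmb8 (34198195 to 34201454) and Tap2 (34204479 to 34216321), the last 3 on the plus strand, stand in a row. Tapbp (33919478 to 33929290, plus) and H2-K1 (33996012 to 34000333, minus) lie at one side, and H2-D1 (35263094 to 35267497, plus) and H2-T23 (36029977 to 36032701, minus) at the other. These 8 genes are 12.3 to 14.4 Mb from Trem2 on the same chromosome. Nlrc5 (chromosome 8, 94472763 to 94527272, plus) is 22.97 Mb from Plcg2, and B2m (122147687 to 122153082, plus) is on chromosome 2. All of these spans take in the exons and introns of the annotated gene, and the counts are over exons.

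Libraries held 36.3 to 83.0 M counts in units of 1000000 counts. Levels are given in CPM, TMM-scaled counts per 1000000 counts. Plcg2 stood at 0.739 to 1.205 CPM in Plcg2KO against 7.73 to 15.2 in WT. Trem2 stood at 4.59 to 7.45 CPM in Trem2KO against 46.5 to 119 in WT, and at 14.1 to 28.6 in Plcg2KO. In the libraries labelled Plcg2HET the Plcg2 level was 5.89 to 19.8 CPM and overlapped WT, so a lower transcript level did not mark that label. Slc17a7, the vesicular glutamate transporter of cortical neurons, stood at 1278 CPM or more in every library (Plcg2KO lowest). The ribosomal RNA precursor Rn45s made up 29.0% of counts in the Plcg2HET female F3, 9.59% in the WT female F1 and 5.29% in the Plcg2HET female F1. Each library's deviation was also related to the GC content of genes, with a Spearman coefficient of -0.566 to -0.285 in Plcg2KO and -0.0764 to 0.52 in Trem2KO. The coefficient was -0.511 to 0.258 in WT and -0.451 to 0.556 in Plcg2HET. GC content was 41.2% for B2m and from 52.5% (Psmb8) to 57.1% (Tapbp) for the other members. Markers of meningeal fibroblasts were higher than in WT for 6 of 8 genes in each knockout and for 5 of 8 in Plcg2HET, at a summed 116 to 163 CPM in WT, 180 to 234 in Plcg2KO, 188 to 224 in Trem2KO and 171 to 237 in Plcg2HET. Markers of border-associated macrophages were higher for 4 of 7 genes in Plcg2KO and for 5 of 7 in Trem2KO and in Plcg2HET, at a summed 18.2 to 26.6 CPM in WT, 30.2 to 34.8 in Plcg2KO, 31.9 to 44.4 in Trem2KO and 24.4 to 37.1 in Plcg2HET. The part of these cells in the results was not tested. The labels give no date or batch.

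Most of the 10 members were lower than in WT in both knockouts. In Plcg2KO against WT 9 of the 10 members were lower and 0 higher, and in Trem2KO against WT 7 were lower and 0 higher (edgeR quasi-likelihood test, Benjamini-Hochberg adjusted p under 0.05 over 16316 genes). Over all genes tested, 7.63% were lower and 5.44% higher in Plcg2KO, and 8.16% were lower and 7.56% higher in Trem2KO. The members' median log2 fold change was -0.74 in Plcg2KO and -0.68 in Trem2KO, against -0.003 and -0.02 over all genes tested. With offsets that removed trends with GC content and length, Tap1 and Tapbp lost the call in Plcg2KO. Their log2 fold changes were then -0.44 (adjusted p = 0.0640, edgeR) and -0.23 (adjusted p = 0.0596). The other calls against WT in both knockouts were kept. In Plcg2HET against WT 1 member was lower, H2-T23, and 0 were higher, where 7.13% of all genes were lower and 10.9% higher. Fitted in males alone, 5 members were called in Plcg2KO against WT and 0 in Trem2KO against WT (7 at an unadjusted p under 0.05), and in females alone 5 in each. These fits hold fewer samples, and the share of all genes called in them was not counted. Their counts therefore say nothing particular about the members. The same 7 members were lower in both knockouts: B2m, the 3 heavy chains, Psmb8, Psmb9 and Nlrc5. These comparisons share the 6 WT libraries. Pan-microglial markers moved the same way, with 15 of 15 lower in Plcg2KO and 14 of 15 in Trem2KO, and in whole cortex fewer microglia and less RNA per microglial cell cannot be told apart.

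**Figure D1:**
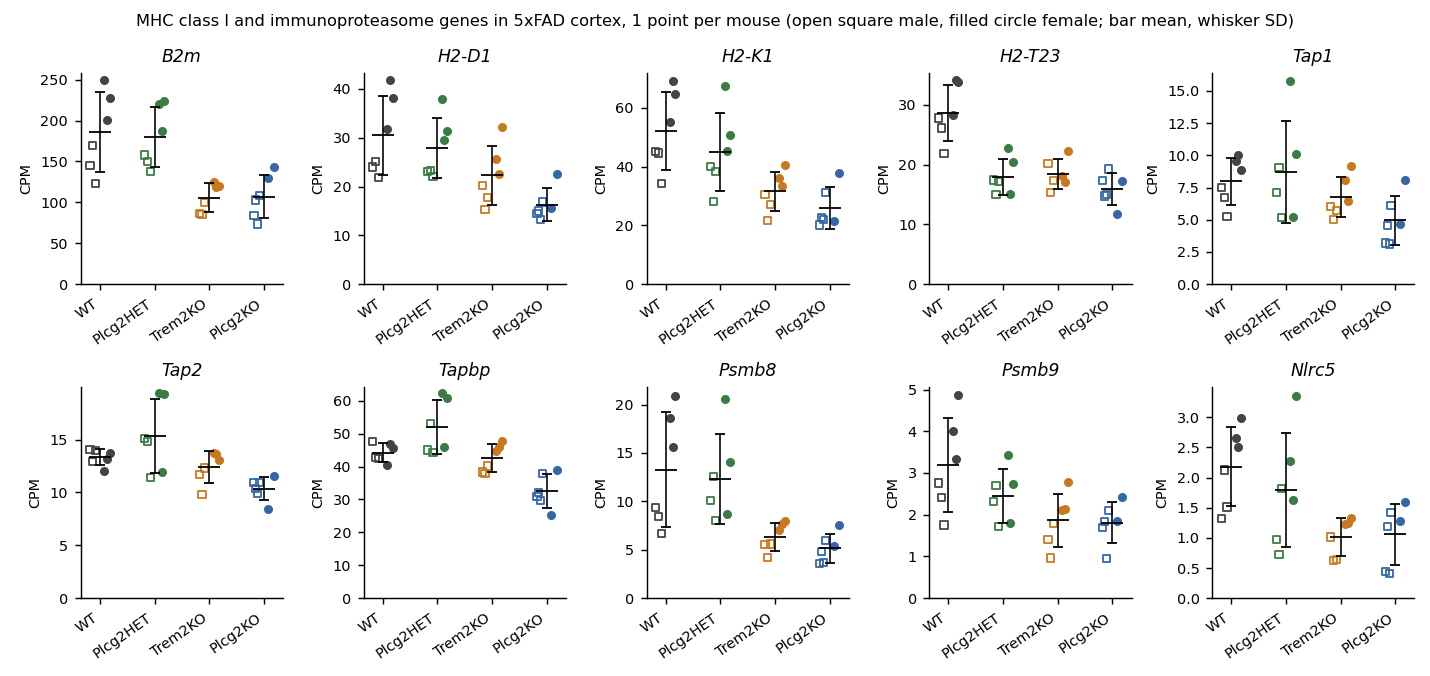
CPM of each of the 10 genes in the 24 libraries by genotype; each point is a mouse (open square male, filled circle female), the bar is the mean and the whisker the SD of 6 mice. H2-T23 in WT ran from 21.9 to 34.2 CPM and in Plcg2KO from 11.7 to 19.3, without overlap, while Tap2 in Trem2KO (9.83 to 13.7) overlapped WT (12.0 to 14.0).

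B2m encodes beta-2 microglobulin, the light chain that every classical heavy chain needs to reach the surface. It was the most abundant member, with 39.1 to 57.6% of the summed CPM of the 10 genes in a library. Its lowest, median and highest CPM were 123, 185 and 249.1 in WT, 85.3, 109 and 125 in Trem2KO, 73.5, 106 and 144 in Plcg2KO and 138, 173 and 224 in Plcg2HET. The ranges of both knockouts overlapped WT at its low end, and Plcg2HET lay within the WT range. The level in Plcg2KO was 61.7% of WT (log2 fold change -0.70, SE 0.10, edgeR adjusted p = 1.64e-05) and in Trem2KO 57.7% (-0.79, SE 0.10, adjusted p = 4.21e-06). In Plcg2HET the log2 fold change was -0.04 with a 95% interval of -0.24 to 0.16.

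H2-K1 and H2-D1 encode the classical heavy chains that present peptides to CD8 T cells. For H2-K1 the lowest, median and highest CPM were 34.3, 50.2 and 69.2 in WT, 21.7, 31.9 and 40.6 in Trem2KO, 20.1, 22.3 and 37.7 in Plcg2KO and 28.1, 42.8 and 67.3 in Plcg2HET. The highest library of each knockout lay above the lowest WT library. The H2-K1 fold change on the log2 scale was -0.90 in Plcg2KO (SE 0.14, adjusted p = 6.83e-05, edgeR) and -0.72 in Trem2KO (SE 0.14, adjusted p = 0.000957).

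For H2-D1 the lowest, median and highest CPM were 21.9, 28.5 and 41.8 in WT, 15.3, 21.4 and 32.3 in Trem2KO, 13.3, 15.3 and 22.6 in Plcg2KO and 22.1, 26.4 and 37.9 in Plcg2HET. Plcg2KO had the lowest median of the 4 groups and overlapped WT at its low end, and Trem2KO overlapped WT widely. The log2 fold change against WT was -0.79 (SE 0.11, adjusted p = 1.66e-05, edgeR) in Plcg2KO and -0.44 (SE 0.11, adjusted p = 0.0062) in Trem2KO. The level of H2-D1 itself is uncertain. Of its 1736 exon bases, 1060 are also annotated as exon of H2-L on the same strand, and H2-L held 0 to 2 counts per library. The deposited expected counts of H2-D1 were a median of 2.96 times its read counts (2.73 to 3.49 over libraries), against medians of 0.712 to 0.931 for the other 9 members.

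H2-T23 encodes Qa-1, a nonclassical heavy chain that presents leader peptides to receptors of natural killer and T cells. Its lowest, median and highest CPM were 21.9, 28.1 and 34.2 in WT, 15.4, 17.7 and 22.3 in Trem2KO, 11.7, 16.1 and 19.3 in Plcg2KO and 15.001, 17.3 and 22.8 in Plcg2HET. It was thus the member that stood low in all 3 genotypes. Plcg2KO did not overlap WT, and Trem2KO and Plcg2HET reached just into the WT range. The log2 fold change was -0.82 (SE 0.13, adjusted p = 5.81e-05, edgeR) in Plcg2KO, -0.64 (SE 0.12, adjusted p = 0.000976) in Trem2KO and -0.67 (SE 0.13, adjusted p = 0.000948) in Plcg2HET. Within each sex the Plcg2HET libraries lay under WT without overlap, at 15.001 to 17.4 against 21.9 to 27.8 CPM in males and at 15.1 to 22.8 against 28.4 to 34.2 in females. H2-T23 was the 1 member of 10 for which this held in either sex, where 6.82% of all genes did so in males and 10.5% in females. Fitted in males alone or females alone the call was lost (adjusted p = 0.0562 at the lowest and 0.0926 at the highest).

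Tap1 and Tap2 form the peptide transporter, and Tapbp encodes tapasin. Their fitted log2 fold changes in Plcg2KO, -0.34 to -0.60, were smaller in size than the -0.79 to -0.90 of the 3 heavy chains, a difference that was not tested. For Tap1 the lowest, median and highest CPM were 5.24, 8.18 and 10.01 in WT, 5.03, 6.25 and 9.17 in Trem2KO, 3.12, 4.62 and 8.07 in Plcg2KO and 5.19, 8.09 and 15.7 in Plcg2HET. All groups overlapped. Tap1 was lower in Plcg2KO, at -0.60 on the log2 scale of fold changes (SE 0.20, adjusted p = 0.0491, edgeR), and the value in Trem2KO was -0.24 (95% interval -0.65 to 0.17). The Plcg2KO call was lost under 17 of 23 alternatives, 9 of them with 1 library left out, at adjusted p from 0.0503 to 0.334.

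For Tap2 the lowest, median and highest CPM were 12.0, 13.5 and 14.0 in WT, 9.83, 12.7 and 13.7 in Trem2KO, 8.41, 10.7 and 11.5 in Plcg2KO and 11.4, 14.96 and 19.4 in Plcg2HET. All 6 Plcg2KO libraries lay under all 6 WT libraries. The change in Plcg2KO, -0.34 in log2 units (SE 0.12, adjusted p = 0.0535, edgeR), missed the threshold. With WT F1 left out it was -0.39, and adjusted p was 0.0454 at most under the 5 of 23 alternatives that called it. The other 18 did not call it, and over all 23 the value ran from -0.39 to -0.14 (adjusted p up to 0.319, edgeR). In Trem2KO the value was -0.11 (95% interval -0.35 to 0.13).

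For Tapbp the lowest, median and highest CPM were 40.4, 44.2 and 47.5 in WT, 37.9, 42.4 and 47.9 in Trem2KO, 25.3, 31.4 and 39.0 in Plcg2KO and 44.3, 49.6 and 62.3 in Plcg2HET. Plcg2KO lay under WT without overlap, and Trem2KO lay among the WT libraries. H2-T23, Tap2 and Tapbp were the 3 members without overlap between Plcg2KO and WT, where 4.75% of all genes were lower without overlap. Between Trem2KO and WT, 0 of 10 were (5.23% of all genes), and between Plcg2HET and WT 0 of 10 (1.64%). The fitted Tapbp change in Plcg2KO was -0.43 in log2 units (SE 0.10, adjusted p = 0.00589, edgeR), and in Trem2KO it was -0.06 (95% interval -0.27 to 0.14). With offsets that removed trends with GC content and length, the Plcg2KO value was -0.23 and was not called.

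**Figure D2:**
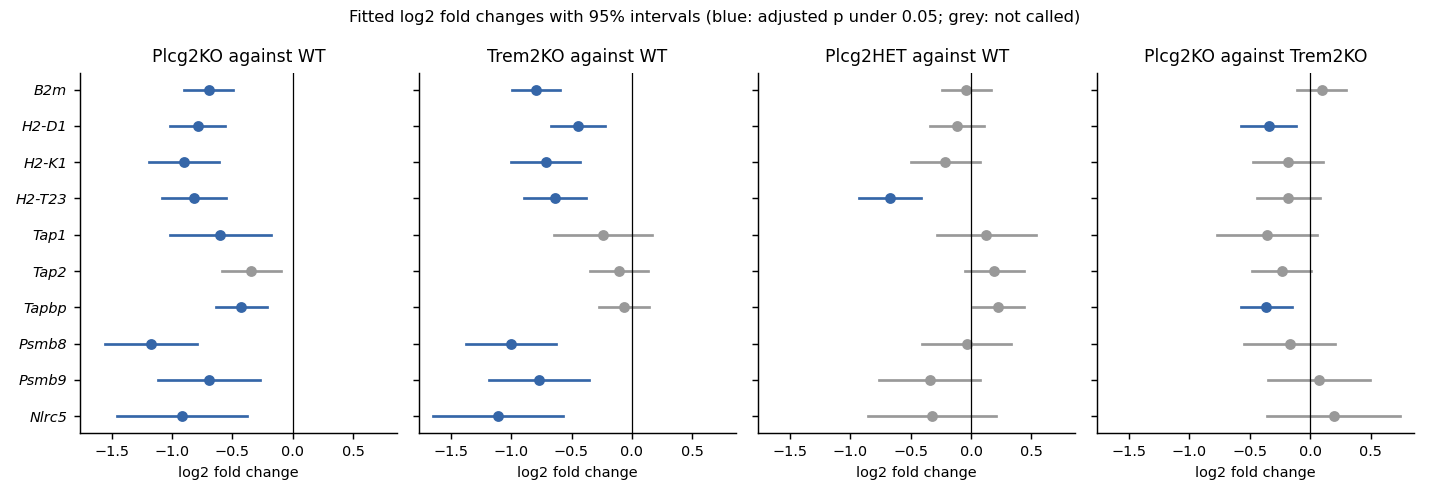
Fitted log2 fold changes of the 10 genes (points) with 95% intervals (bars) in 4 comparisons; blue marks an adjusted p under 0.05 and grey the others. The largest decreases in Plcg2KO and Trem2KO were those of Psmb8 (-1.17 and -1.001) and Nlrc5 (-0.91 and -1.11), and Tapbp in Trem2KO lay at -0.06.

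Psmb8 encodes the chymotrypsin-like inducible subunit (LMP7) and Psmb9 the inducible subunit LMP2. For Psmb8 the lowest, median and highest CPM were 6.69, 12.5 and 20.9 in WT, 4.19, 6.33 and 7.92 in Trem2KO, 3.60, 5.12 and 7.56 in Plcg2KO and 8.01, 11.3 and 20.6 in Plcg2HET. Of the Plcg2KO libraries all but F2 lay under the lowest WT library, as did the 3 Trem2KO males, and both knockouts lay under Plcg2HET without overlap. Psmb8 was at 44.4% of WT in Plcg2KO (log2 fold change -1.17, SE 0.19, adjusted p = 7.55e-05, edgeR) and at 50.0% in Trem2KO (-1.001, SE 0.18, adjusted p = 0.000474).

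For Psmb9 the lowest, median and highest CPM were 1.75, 3.05 and 4.86 in WT, 0.965, 1.95 and 2.79 in Trem2KO, 0.942, 1.84 and 2.43 in Plcg2KO and 1.71, 2.51 and 3.42 in Plcg2HET. All groups overlapped. The log2 fold change was -0.69 (SE 0.20, adjusted p = 0.0242, edgeR) in Plcg2KO and -0.77 (SE 0.20, adjusted p = 0.0105) in Trem2KO. In Plcg2KO the call was lost without WT M1, WT F3, Plcg2KO M3 or Plcg2KO F1, with values of -0.66, -0.61, -0.58 and -0.62.

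Nlrc5 encodes the transactivator that sits on class I promoters. Its lowest, median and highest CPM were 1.33, 2.31 and 2.98 in WT, 0.620, 1.12 and 1.33 in Trem2KO, 0.405, 1.23 and 1.60 in Plcg2KO and 0.720, 1.73 and 3.35 in Plcg2HET. The highest Trem2KO library lay just above the lowest WT library, and Plcg2KO overlapped WT slightly more. Nlrc5 was lower in Plcg2KO (log2 fold change -0.91, SE 0.26, adjusted p = 0.0200, edgeR) and in Trem2KO (-1.11, SE 0.26, adjusted p = 0.00469). Its median count was 82.5 per library with a lowest of 25, the fewest of the 10. Without WT M2 or Plcg2KO F1 the Plcg2KO value was -0.80 or -0.87 and was not called.

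Compared per kilobase of exon, the order of mean levels in WT was B2m, H2-K1, H2-T23, H2-D1, Tapbp, Psmb8, Tap2, Psmb9, Tap1 and Nlrc5. The mean was 217 ± 56.9 CPM per kb for B2m, 31.7 ± 8.06 for H2-K1 and 0.314 ± 0.0944 for Nlrc5 (SD, n = 6). B2m stood above H2-K1, and Tap1 above Nlrc5, without overlap of the WT libraries, and each of the other 7 pairs of neighbours overlapped. H2-D1 has the uncertain place described for its counts.

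Set against each other, the knockouts differed in few members. In Plcg2KO against Trem2KO 2 members were lower, H2-D1 at a log2 fold change of -0.34 (95% interval -0.57 to -0.12, SE 0.11, adjusted p = 0.0363, edgeR) and Tapbp with -0.36 (SE 0.10, adjusted p = 0.0222), where 8.82% of all genes were lower. The other 8 ranged from -0.36 for Tap1 to 0.19 for Nlrc5. For B2m the difference was 0.10 with a 95% interval of -0.11 to 0.30, and for Psmb8 -0.17 with -0.55 to 0.21. With the GC and length offsets 0 members were called (1 at an unadjusted p under 0.05), and H2-D1 and Tapbp then stood at -0.12 and -0.09. The count was 0 without Trem2KO F3 or without Plcg2KO F1 (2 at an unadjusted p under 0.05 in each), and 1 without Trem2KO M1, M3 or F1 or without Plcg2KO M1 or M3.

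Against Plcg2HET, 7 members were lower in Plcg2KO (20.2% of all genes) and 5 in Trem2KO (9.28%). The count of 5 was 8 without Plcg2HET F2, and 3 without Trem2KO M2, M3, F1 or F2 or without Plcg2HET F1 or F3. With the GC and length offsets, 5 members were called in Plcg2KO against Plcg2HET. Tap1 then went from -0.73 to -0.40 (adjusted p = 0.0704, edgeR) and Tap2 from -0.54 to -0.19 (adjusted p = 0.128), and Tapbp, still called, from -0.65 to -0.32. Without the offsets, the 7 members lower in Plcg2KO were B2m, H2-D1, H2-K1, Tap1, Tap2, Tapbp and Psmb8. The 5 lower in Trem2KO were B2m, H2-D1, H2-K1, Psmb8 and Nlrc5. H2-T23 differed by -0.14 (95% interval -0.40 to 0.12) and 0.04 (-0.22 to 0.29) in these 2 comparisons. Tapbp and Psmb8 were lower in Plcg2KO than in Plcg2HET without overlap (4.44% of all genes), and B2m and Psmb8 were so in Trem2KO (3.17%).

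Catalytic subunits of the proteasome come in pairs in which an inducible subunit takes the place of a constitutive one, Psmb8 for Psmb5, Psmb9 for Psmb6 and Psmb10 for Psmb7. Per kilobase, Psmb8 stood at a mean of 0.102 of Psmb5 in WT (0.0571 to 0.143), 0.0479 in Trem2KO (0.0370 to 0.0615), 0.0531 in Plcg2KO (0.0294 to 0.0808) and 0.0921 in Plcg2HET (0.0609 to 0.113). The mean Psmb9 to Psmb6 ratio was 0.0332 in WT (0.0216 to 0.0395), 0.0218 in Trem2KO (0.0113 to 0.0328), 0.0234 in Plcg2KO (0.0135 to 0.0351) and 0.0275 in Plcg2HET (0.0209 to 0.0320). For Psmb10 to Psmb7 it was 0.161 in WT (0.144 to 0.185) and 0.142 in Trem2KO (0.125 to 0.167). In Plcg2KO this ratio was 0.127 (0.117 to 0.136) and in Plcg2HET 0.155 (0.136 to 0.203). Psmb10 was lower in Plcg2KO (log2 fold change -0.41, SE 0.14, adjusted p = 0.0451, edgeR), and its value in Trem2KO was -0.22 (SE 0.14, adjusted p = 0.282).

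The constitutive subunits gave no calls. Their log2 fold changes in Plcg2KO and Trem2KO were -0.31 and 0.05 for Psmb5, -0.27 and -0.14 for Psmb6 and -0.09 and -0.04 for Psmb7, with 0 of 3 called in either by edgeR or by DESeq2 and 0 at an unadjusted p under 0.05. Of 13 further core and regulator subunits, 0 were called in Plcg2KO by either tool (0 at an unadjusted p under 0.05), and in Trem2KO 0 by edgeR (3 at an unadjusted p under 0.05) and 1 by DESeq2. The 3 of these with the smallest p in Plcg2KO were Psmb2 at 0.18, Psmb4 at -0.19 and Psma7 at -0.13, with 0.16, 0.11 and -0.27 in Trem2KO. The proteasome activator subunits Psme1 and Psme2, which interferon gamma also raises, had values of -0.08 and -0.33 in Plcg2KO and 0.06 and -0.27 in Trem2KO. Pomp, the chaperone of proteasome assembly, stood at -0.17 and -0.27. None of those 6 values was called, and of the 4 genes 1 was lower in Plcg2KO, Psmb10, and 0 in Trem2KO (2 at an unadjusted p under 0.05, 0 by DESeq2).

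**Figure D3:**
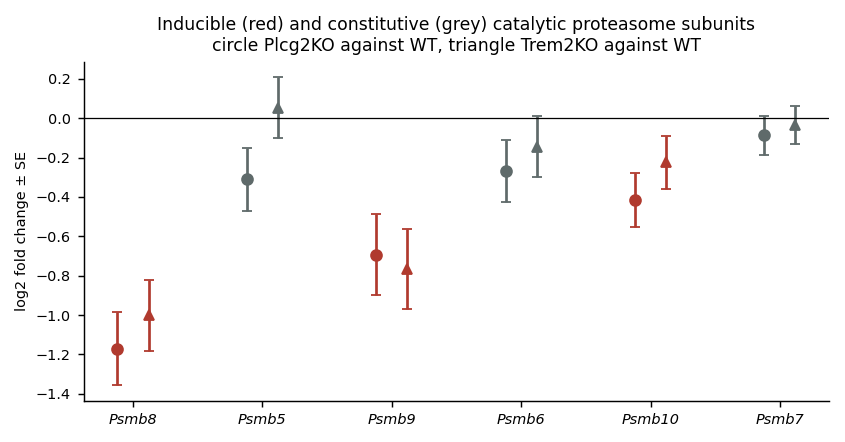
Log2 fold changes against WT with SE for the inducible (red) and constitutive (grey) catalytic subunits of the proteasome in Plcg2KO (circles) and Trem2KO (triangles). Psmb8 stood at -1.17 and -1.001, and its constitutive partner Psmb5 at -0.31 and 0.05.

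Of 12 tested genes among 19 other class I and class I-like heavy chains, 3 were lower and 1 higher in Plcg2KO and 4 lower and 1 higher in Trem2KO. H2-T24 stood at -0.88 (SE 0.15, adjusted p = 0.000237, edgeR) and -0.78, H2-Q4 at -0.82 and -0.66, and H2-M3, which presents formylated peptides, at -0.62 and -0.56 in Plcg2KO and Trem2KO. H2-Q1 was higher at 1.004 (SE 0.24, adjusted p = 0.00602) and 0.90, at a mean of 0.883 CPM over all libraries. Close copies in this family can share or lose reads, so these values are uncertain.

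Other genes of loading and peptide trimming gave few calls. Of 12 tested, 0 were lower and 2 higher in Plcg2KO, and 2 lower and 0 higher in Trem2KO. Lnpep, an aminopeptidase of endosomes, was higher in Plcg2KO at 0.79 (SE 0.21, adjusted p = 0.0109, edgeR) and stood at 0.35 in Trem2KO, and Tpp2, a cytosolic peptidase, was higher in Plcg2KO at 0.43 and stood at 0.18 in Trem2KO. Tapbpl, the tapasin-related peptide editor, stood at -0.27 (adjusted p = 0.0833) in Plcg2KO and was lower in Trem2KO at -0.30 (adjusted p = 0.0399). Calr, a chaperone of the loading complex, stood at -0.29 and -0.27, and the trimming peptidase Erap1 at 0.03 and 0.005, all uncalled.

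Among 17 transcriptional regulators of class I genes 4 were lower in Plcg2KO and 1 in Trem2KO, with 0 higher in both. Irf8, a factor of microglia and macrophages, was lower in both at -1.29 (SE 0.13, adjusted p = 1.76e-07, edgeR) and -1.18 (SE 0.13, adjusted p = 9.9e-07). Irf9 and Stat2, which encode parts of the factor that binds the ISRE, were lower in Plcg2KO at -0.70 and -0.36 and stood at -0.33 and -0.19 in Trem2KO. Irf1, which binds the ISRE and drives Tap1 and Psmb9, was lower in Plcg2KO at -0.47 (SE 0.13, adjusted p = 0.0162) and stood at -0.05 in Trem2KO. Rfx5, which binds the X box of class I promoters together with NLRC5, stood at -0.13 and -0.16, both uncalled. Of 7 interferon receptor and kinase genes, 1 was lower in Plcg2KO, Tyk2 at -0.53 (adjusted p = 0.0183), with the kinase Jak1 at 0.24 and the receptor chain Ifnar2 at -0.28 uncalled, and 0 were called by edgeR in Trem2KO (1 at an unadjusted p under 0.05, and 1 called by DESeq2).

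Interferon-induced genes were counted beside the members. Of 15 type I interferon genes, 12 were lower in Plcg2KO and 4 in Trem2KO, among them Bst2 at -1.21 and -0.80 and Rsad2 at -0.98 and -0.81. Ifi27 was lower in Plcg2KO at -0.74 and stood at -0.39 (adjusted p = 0.0834, edgeR) in Trem2KO. In the direct comparison of Plcg2KO with Trem2KO, 0 of these 15 were called. Of 15 genes that respond mainly to interferon gamma, 3 were lower in Plcg2KO and 4 in Trem2KO. The GTPase genes Igtp (-0.47 and -0.41) and Irgm1 (-0.44 and -0.49) were lower in both, and Cxcl10, a chemokine for T cells, was lower in Plcg2KO at -0.94 and stood at -0.33 in Trem2KO.

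MHC class II genes, which present to CD4 T cells, were lower for 8 of 8 in both knockouts, with medians of -1.59 and -1.47 on the log2 scale. Cd74, the invariant chain, stood at -2.24 (SE 0.21, adjusted p = 3.85e-08, edgeR) and -2.16, H2-Ab1 at -2.07 and -1.94 and H2-Aa at -1.92 and -2.13. Of 12 genes listed as receptors for class I molecules, 5 were tested. Lilrb4a, an inhibitory receptor of myeloid cells, was lower at -2.91 (SE 0.28, adjusted p = 5.14e-08) and -2.42. Pirb, another inhibitory receptor, stood at -0.61 and -0.38 with neither called. Lrp1, a scavenger receptor, stood at 0.13 in Plcg2KO and was higher in Trem2KO at 0.49 (adjusted p = 0.00399). A place in this list does not show that Lilrb4a or Lrp1 binds class I molecules.

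The summed CPM of the 15 pan-microglial markers ran from 1265 to 2216 in WT, 835 to 1221 in Trem2KO, 662 to 1130 in Plcg2KO and 1400 to 2412 in Plcg2HET, beside 272 to 461, 196 to 298, 172 to 292 and 288 to 472 for the 10 members. Markers of disease-associated microglia were lower for 12 of 12 and 10 of 12. Endothelial markers were lower for 9 of 12 in Plcg2KO, and for 1 of 12 in Trem2KO with 1 higher, and their summed CPM was 277 to 385 in WT, 218 to 247 in Plcg2KO and 270 to 360 in Trem2KO. The part of these cells in the members' levels was not tested. Markers of T and NK cells summed to 2.04 to 2.98 CPM in Trem2KO, 1.98 to 3.55 in Plcg2KO, 2.64 to 3.85 in WT and 2.25 to 4.25 in Plcg2HET. Of their 5 tested genes 0 were called by edgeR in either knockout, with 2 at an unadjusted p under 0.05 and 1 called by DESeq2 in Trem2KO. Cd3e stood at a mean of 0.25 CPM in WT, and Trac, Trbc1 and Trbc2 have no row of that name.

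Members were also set relative to the mean log2 CPM of the 15 pan-microglial markers in the same library. Of these markers, 15 of 15 were themselves lower in Plcg2KO and 14 of 15 in Trem2KO. The members' means in the knockouts stood above their WT means except Psmb8 in both and Nlrc5 in Trem2KO. Ranges overlapped WT unless said to stand above the WT range. Tapbp stood above the whole WT range in both knockouts, higher by a mean of 0.72 in Plcg2KO and 0.81 in Trem2KO. Tap1 and Tap2 stood above the WT range in Trem2KO, by 0.64 and 0.77. Psmb8 differed from WT by -0.10 in both knockouts, with ranges that overlapped WT. B2m differed by 0.39 in Plcg2KO and 0.09 in Trem2KO, and H2-T23 by -0.71 in Plcg2HET. These are differences of log2 levels against a mean of other genes and carry no test.

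**Figure D4:**
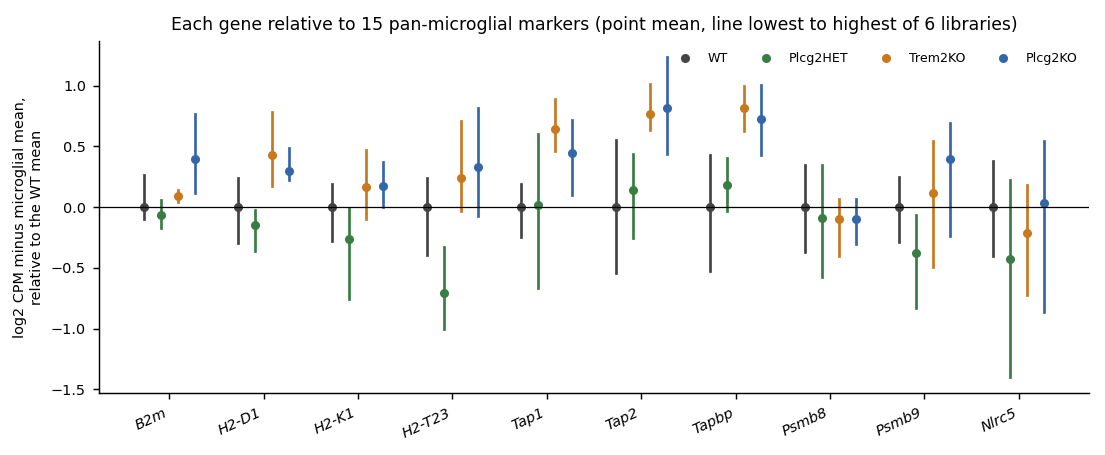
Log2 CPM of each gene minus the mean log2 CPM of 15 pan-microglial markers in the same library, set relative to the WT mean; points are means and lines run from the lowest to the highest of 6 libraries. Tapbp stood at 0.72 in Plcg2KO and 0.81 in Trem2KO, Psmb8 at -0.10 in both, and H2-T23 at -0.71 in Plcg2HET.

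Females had higher levels than males for 7 of 10 members over the 4 genotypes, against 2.27% of all genes that were higher in females. The 7, by log2 fold change, were Nlrc5 with 0.80 (SE 0.19, adjusted p = 0.0143, edgeR), Psmb8 with 0.70 (SE 0.13, adjusted p = 0.00202), Psmb9 with 0.56, Tap1 with 0.54, H2-D1 with 0.54, B2m with 0.53 (SE 0.07, adjusted p = 4.55e-05) and H2-K1 with 0.51. H2-T23, Tap2 and Tapbp stood at 0.14, 0.11 and 0.13 and were not called. In WT, B2m was 123 to 169 CPM in males and 201 to 249.1 in females, and Psmb8 was 6.69 to 9.33 in males and 15.6 to 20.9 in females.

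Females lay above males without overlap for 8 of 10 members in WT (15.6% of all genes), 9 in Trem2KO (7.9%), 1 in Plcg2KO (7.68%) and 3 in Plcg2HET (3.19%). Plcg2KO had 4 males and 2 females. In the test of whether the genotype effect differs between the sexes, 0 of 30 member contrasts were called by edgeR or DESeq2, with 1 at an unadjusted p under 0.05, H2-T23 in Plcg2KO. By edgeR 0% of all 16316 genes were called in each of the 3 such tests, so these calls say nothing particular about the members. For B2m in Plcg2KO the difference of the effects (female minus male, log2) was -0.06 with a 95% interval of -0.49 to 0.36. When the 3 Rn45s-rich libraries were left out, all of them females (2 Plcg2HET and 1 WT), 4 of the 7 members were called, and Tap1, Psmb9 and Nlrc5 were not. Tap1 and Psmb9 also lost the call with 16 and 13 single libraries left out. Pan-microglial markers were higher in females for 14 of 15 genes, and type I interferon genes for 12 of 15, and their part in the members' difference was not tested.

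Within each sex, all 10 members lay lower in Plcg2KO than in WT without overlap in females (2 against 3 mice), where 24.3% of all genes did so, and 7 of 10 did in males, where 11% did. In Trem2KO 6 of 10 did so in females (20.2% of all genes) and 8 of 10 in males (14.8%).

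**Figure D5:**
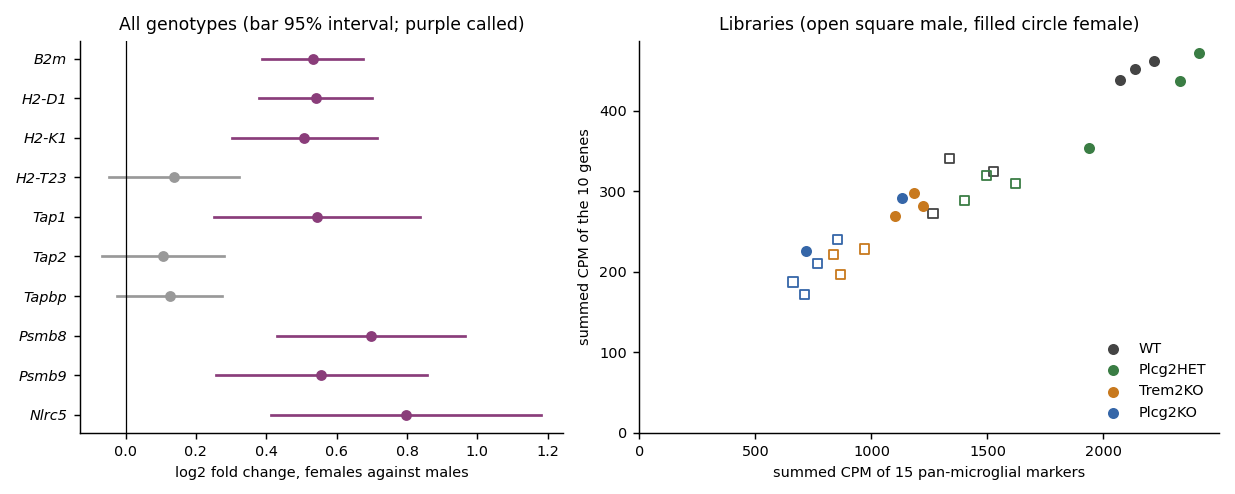
Left, log2 fold changes of females against males over all genotypes with 95% intervals (purple marks adjusted p under 0.05). Right, summed CPM of the 10 genes against summed CPM of 15 pan-microglial markers in each of 24 libraries; the Plcg2KO and Trem2KO libraries fill the low end, at 662 to 1130 and 835 to 1221 marker CPM.

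The members moved together from mouse to mouse. Over 24 libraries the Pearson correlation of log2 CPM between pairs of members ran from 0.46 to 0.95 with a median of 0.76 over 45 pairs, and on deviations from the genotype means from 0.27 to 0.92 with a median of 0.67. These are descriptions, since the libraries share genotype, sex and depth differences. Psmb8 and H2-K1 followed the mean of the members most closely (0.96 both), and Tap2 and H2-T23 least (0.74 both). Each member is itself part of that mean, which raises its value, so these are not on a par with the values of other genes. Among the 12894 genes compared, whose average log2 CPM was 1 or more, those most like that mean over 24 libraries were Unc93b1 (0.96), which carries nucleic acid-sensing Toll-like receptors to endosomes, the Fc receptor gene Fcgr1 (0.95), Cd48 (0.94), the complement gene C1qc (0.94) and Csf2rb (0.94). On deviations from genotype means they were Irf9 (0.95), Lgals3bp (0.94), Unc93b1 (0.94), the complement receptor gene C3ar1 (0.94) and Usp18 (0.93), a protease that removes the interferon-induced modifier ISG15. Unc93b1 stood at 21.7 to 33.5 CPM in WT, 16.5 to 23.4 in Trem2KO, 12.5 to 21.1 in Plcg2KO and 20.2 to 37.8 in Plcg2HET.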

How the data were processed

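RNA from the cortex of 24 mice was sequenced after an mRNA library kit, per the labels' protocols. The authors deposited whole-number read counts per gene, beside the position and length of its exons (per the file headers). Tools in the submitters' processing notes are STAR 2.7.10a and featureCounts 2.0.3, with build mm10. Expected counts, TPM and FPKM per gene are also deposited by the authors, per the file headers. Which tool made them and whether counting used strand was not given in the sources used here. Reads of overlapping genes can therefore be shared or lost. No test used the deposited TPM or FPKM, and 1 alternative used the expected counts after rounding.

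Counts were analysed in R 4.3.3 with edgeR 4.0.16. The filter was filterByExpr (minimum count 10, grouped by genotype), sizes were scaled by TMM, and a robust quasi-likelihood model with 1 mean per genotype and a sex term was fitted to all 24 libraries. P-values were adjusted by Benjamini-Hochberg over 16316 genes and called under 0.05, and 95% intervals follow from the same fit. Total counts per library were 36.3 to 83.0 M, and correlations of log2 counts between libraries were 0.98 to 0.994, with 0 identical pairs. The test was also run on counts simulated from its own fitted spread without sex or GC differences, so that run cannot show how it does under them. Where nothing says that mice were handled apart, p-values measure the spread between these libraries. The alternatives tried used DESeq2-style RLE scaling, all genes unfiltered, a fit without sex, a replicate block by mouse code, only the 2 groups compared, each sex alone, no Rn45s-rich libraries, DESeq2 1.42.0, expected counts, GC and length offsets (GC content known for 96.2% of tested genes and all 10 members) and each library left out. Sequences are RefSeq, GRCm38.p6, matched by symbol.

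The members and the lists were chosen with earlier results of these data known. Named genes were the 10 members, of each other list the 3 with the smallest p in Plcg2KO against WT, a set of fixed names, and the 5 genes most like the mean of the members by each measure. Of the fixed names, 1 gene is not reported here.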

Additional observations from a re-analysis of the deposited data

How the results depend on the processing

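Of 1670 single-member comparisons with an alternative, 1493 kept their direction and their side of the threshold, 133 lost the call, 17 gained it and 27 changed sign, of which 0 had a called value as reported and 1 had a called value under the alternative. B2m, H2-D1, H2-K1, H2-T23 and Psmb8 in Plcg2KO against WT were called under all alternatives run. In males alone the members called numbered 5 in Plcg2KO against WT, 0 in Trem2KO against WT (7 at an unadjusted p under 0.05), 0 in Plcg2HET against WT (1 unadjusted), 0 in Plcg2KO against Trem2KO (2 unadjusted) and 2 in Trem2KO against Plcg2HET. In females alone they numbered 5, 5, 0 (3 unadjusted), 0 (2 unadjusted) and 2 in the same order, and these fits hold fewer samples. The share of all genes called in the single-sex fits was not counted. In Plcg2KO against Trem2KO the count of 2 was 1 with no sex term, 1 with expected counts and 0 with GC and length offsets (1 unadjusted), and the cause was not tested. With those offsets Plcg2HET against WT had 2, and in Plcg2KO against WT the calls of Tap1 and Tapbp were lost. In Trem2KO against Plcg2HET the count of 5 was 2 with no sex term, 3 with only the 2 groups compared and 2 without the Rn45s-rich libraries, and without these libraries 4 members were called in females against males.

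With 1 library left out, the count ranged from 6 to 9 in Plcg2KO against WT, 7 to 7 in Trem2KO against WT, 1 to 1 in Plcg2HET against WT, 0 to 2 in Plcg2KO against Trem2KO (0 by edgeR with 2 at an unadjusted p under 0.05), 7 to 8 in Plcg2KO against Plcg2HET, 3 to 8 in Trem2KO against Plcg2HET and 5 to 7 in females against males. With the replicate code as a block, the counts of members called were 9, 7, 1, 1, 8 and 4 in the 6 genotype comparisons, so that in Plcg2KO against Trem2KO the count fell to 1. The codes name mice and do not pair them: correlations of same-code deviations ran from -0.258 to 0.187, with at most 1 pair over 0.1 in a comparison.

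Signs that turned belong to values that were not called as reported. In females alone, Tap2 and Tapbp in Trem2KO against WT were 0.077 and 0.083. In Plcg2HET against WT, B2m was 0.036 in males alone, 0.29 with GC and length offsets (adjusted p = 0.0163, edgeR) and -0.094 to 0.0018 with 1 library left out. Psmb8 there was 0.33 in males alone and -0.16 to 0.10 with 1 library left out, Tap1 -0.10 without Rn45s-rich libraries, -0.042 with the offsets and -0.059 to 0.27 with 1 library left out, and Tap2 -0.020 without Rn45s-rich libraries. In Plcg2KO against Trem2KO, B2m was -0.23 and Tap2 0.039 with the offsets. Psmb9 there was -0.048 with no sex term, -0.13 in females alone and -0.035 to 0.18 with 1 library left out, and Nlrc5 ranged from -0.0036 to 0.33. In Trem2KO against Plcg2HET, H2-T23 was -0.016 in females alone and -0.021 to 0.11 with 1 library left out. Depth limits Nlrc5 and Psmb9 most, with median counts of 82.5 and 121.5 per library.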
